A study of Homo sapiens with 30 samples.

Results

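The genes described here store iron, carry it across the gut epithelium and sense it inside the cell, and were read in a human intestinal co-culture exposed to nanoparticles. They were taken as every probe set of the array whose annotated gene symbol was exactly FTL, FTH1, TFRC, SLC11A2, HEPH, CYBRD1, TF, IREB2 or ACO1. The rule found 16 probe sets of 22215 tested, and they belong to 7 of the 9 genes. FTL, TFRC and HEPH had 2 probe sets each, SLC11A2 and TF had 4 each, and CYBRD1 and ACO1 had 1 each. No probe set carried the symbol FTH1 or IREB2 alone in the annotation used, so ferritin heavy chain and the second iron regulatory protein were not analysed here.

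The cultures mixed Caco-2, a colorectal carcinoma line that differentiates into absorptive enterocyte-like cells, with HT29-MTX, a mucus-secreting subline of HT-29 selected in methotrexate. There were 10 groups of 3 arrays each. Multi-walled carbon nanotubes (MWCNT) at 10 or 100 µg/ml and titanium dioxide nanobelts (TiO2-NB) at 10 or 100 µg/ml were given for 1 h or 24 h. Controls received fresh medium without particles for the same 1 h or 24 h. RNA came from the whole co-culture, in which fewer cells of a type and less RNA per cell cannot be told apart. No label names a control that carries the particle suspension medium alone. The 3 cultures of a group are labelled biological replicates, all of the same 2 lines. Values are log2 levels as deposited, "called" means an adjusted p under 0.05 in limma over all 22215 probe sets, and the 4 exposures of a time share the 3 control arrays of that time.

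Medians of the 30 arrays lay between 6.45 and 6.49, and arrays of a group correlated at 0.997 to 0.999. All 12 epithelial markers looked up and 5 of 6 mucus and goblet cell markers lay above the median probe set, against 0 of 2 erythroid markers measured, 2 of 6 leukocyte markers (CD14 and LYZ), 1 of 4 fibroblast markers and 1 of 3 endothelial markers. Summed over the 12 epithelial markers, group means ranged from 133.1 to 134.0 on the log2 scale, and the 6 leukocyte markers summed to 37.2 to 38.0. The 18S ribosomal RNA control probe set was higher than in control by 1.17, 1.51, 0.84 and 0.80 (log2) in the 1 h cultures given MWCNT 10, MWCNT 100, TiO2-NB 10 and TiO2-NB 100, and by 0.24, 0.059, 0.40 and 0.19 at 24 h.

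Dietary iron is reduced at the brush border by duodenal cytochrome b (CYBRD1) and enters the enterocyte through the divalent metal transporter DMT1 (SLC11A2). It is stored in ferritin, built of light (FTL) and heavy (FTH1) chains, or leaves the basolateral side through ferroportin with the help of hephaestin (HEPH), a copper oxidase. Transferrin (TF) carries iron in plasma and the transferrin receptor (TFRC) takes it into cells. When iron is short, the iron regulatory proteins (encoded by ACO1 and IREB2) bind iron-responsive elements (IRE), hairpins in messenger RNA: they block translation of ferritin from an IRE near the start of its transcript and stabilise TFRC from IREs near its end. SLC11A2 makes transcripts with and without such a 3′ IRE, and the annotation used does not say which of them each probe set reads. A change in iron supply can thus alter ferritin protein without altering ferritin RNA, and RNA is all that the arrays read.

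The FTL element is shown because it is the site through which iron sets ferritin synthesis. FTL lies on chromosome 19 at 48965309 to 48966879 (GRCh38.p14, RefSeq). The stretch is chr19:48965329-48965358 on the plus strand, in the first bases of the transcript, and capitals mark the 12 letters that match CNNNNNCAGTGN, the bulged C and the loop of an IRE, starting 33 bases into the transcript.
FTL IRE stretch: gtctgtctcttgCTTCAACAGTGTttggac
The pattern, searched on the transcript's strand only, occurs in the first 50 bases of 586 of 35116 RefSeq starts (1.67%), so a match alone is a description of letters.

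SLC11A2 (chromosome 12, 50952263 to 51028886) is shown with the 100 bases before each of its 4 annotated starts, since 1 of its probe sets was called at 1 h and its transcripts begin at different places. All are on the minus strand of GRCh38.p14, at chr12:51009216-51009315, chr12:51026385-51026484, chr12:51028243-51028342 and chr12:51028887-51028986. Capitals mark ACGTG or GCGTG on either strand, the core letters bound by hypoxia-inducible factors, which in mouse intestine raise Slc11a2 and Cybrd1.
SLC11A2 start 51009215: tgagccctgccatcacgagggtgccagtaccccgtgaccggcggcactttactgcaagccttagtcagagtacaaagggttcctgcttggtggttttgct
SLC11A2 start 51026384: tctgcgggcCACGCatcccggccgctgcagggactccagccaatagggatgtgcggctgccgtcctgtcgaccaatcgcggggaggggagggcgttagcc
SLC11A2 start 51028242: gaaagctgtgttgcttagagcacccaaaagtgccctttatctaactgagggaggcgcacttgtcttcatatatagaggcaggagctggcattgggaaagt
SLC11A2 start 51028886: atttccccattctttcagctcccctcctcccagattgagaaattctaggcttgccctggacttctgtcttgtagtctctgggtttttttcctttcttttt
The letters occurred before 1 of the 4 starts, at position -91. The TFRC promoter, chr3:196082091-196082190 on the minus strand, held them at -88.
TFRC start 196082090: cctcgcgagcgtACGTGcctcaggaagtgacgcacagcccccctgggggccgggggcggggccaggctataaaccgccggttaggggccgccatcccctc
Of all 35116 windows of this length, 8450 (24.1%) hold either form. Matches also lay at -11 before the FTL start and at -5 before the ACO1 start. None was in the windows of HEPH, CYBRD1, TF or IREB2, which says only that these letters are not there. Promoter entries were matched for 8 of the 9 genes.

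Exposure to particles was followed at 1 h by a lower level of 1 SLC11A2 probe set, 210047_at, and at 24 h by no called change in any iron gene. At 1 h, 1 of 16 member probe sets was called with MWCNT 10, 1 with MWCNT 100, 1 with TiO2-NB 10 and 2 with TiO2-NB 100, against 6.46%, 7.78%, 7.84% and 8.43% of all 22215 probe sets. These shares are near those of the whole array, and nothing about the iron genes is read from them. The median change over the 16 probe sets was 0.0053, -0.042, -0.074 and -0.042 (log2), and over all probe sets -0.012, -0.0081, 0.0051 and 0.0015. The rest of the description therefore goes gene by gene. Where all arrays of an exposure lay above or below the controls, this is given as a description. How many of all probe sets do so was not counted.

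**Figure D1:**
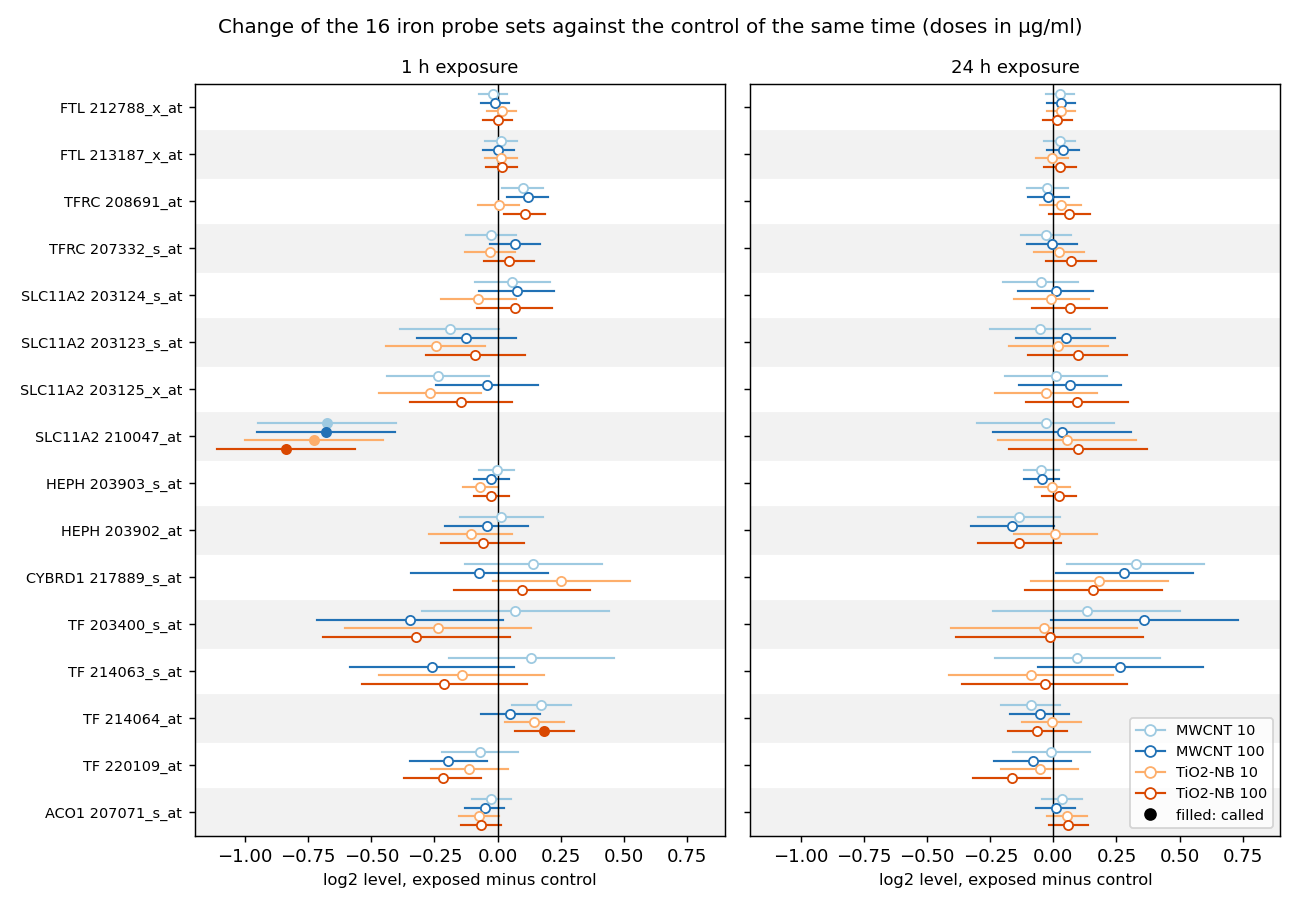
Log2 level in exposed minus control cultures of the same time (horizontal axis) for the 16 iron probe sets (rows), at 1 h on the left and 24 h on the right. Points are differences of means of 3 arrays, bars are 95% intervals from limma and filled points passed an adjusted p under 0.05: the 4 values for SLC11A2 210047_at at 1 h, between -0.84 and -0.68, and TF 214064_at with TiO2-NB 100.

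SLC11A2, the apical importer of ferrous iron, gave the largest change against control among the 16 probe sets, on 1 of its 4 probe sets. That probe set, 210047_at, was the dimmest of the 4, with a mean of 6.42 over the 30 arrays (the others 12.69, 12.15 and 8.52). Its exposed arrays at 1 h all read below the array medians of 6.45 to 6.49. On probe set 210047_at the 1 h arrays read 5.84, 5.76 and 5.99 with MWCNT at 10 µg/ml, 6.27, 5.50 and 5.82 with MWCNT at 100 µg/ml, 5.63, 6.15 and 5.65 with TiO2-NB at 10 µg/ml and 5.61, 5.75 and 5.75 with TiO2-NB at 100 µg/ml, against 6.39, 6.61 and 6.61 in controls. All 12 exposed arrays lay below all 3 control arrays, and the highest of them was 1 MWCNT 100 culture at 6.27. The level fell by 0.68, 0.68, 0.73 and 0.84 (log2, SE 0.13) with MWCNT 10, MWCNT 100, TiO2-NB 10 and TiO2-NB 100, which is 1.60-, 1.60-, 1.66- and 1.79-fold lower than in control. Adjusted p values in limma were 0.00247, 0.00207, 8.57e-04 and 1.75e-04. The spread of the MWCNT 100 group was wide: its mean was 5.86 ± 0.38, against 6.54 ± 0.13 in control (SD, n = 3 each).

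At 24 h the same probe set read 6.75, 6.79 and 6.89 with MWCNT at 10 µg/ml, 6.92, 6.94 and 6.77 with MWCNT at 100 µg/ml, 6.88, 6.89 and 6.92 with TiO2-NB at 10 µg/ml and 6.85, 6.92 and 7.05 with TiO2-NB at 100 µg/ml, against 6.91, 6.82 and 6.80 in controls. The groups overlapped, and the differences from control were -0.031, 0.034, 0.056 and 0.098, none of them called. The 24 h interval with TiO2-NB 100, -0.18 to 0.37, lay wholly above its 1 h interval, -1.11 to -0.57. The difference between the effects at 24 h and at 1 h was itself tested. It was 0.71 ± 0.19 (SE) with MWCNT 100, 0.78 with TiO2-NB 10 and 0.94 with TiO2-NB 100, at limma adjusted p of 0.0384, 0.0181 and 0.00287. With MWCNT 10 it was 0.64 and not called (limma adjusted p 0.0823). Over all probe sets these 4 tests called 1.79% (MWCNT 10), 2.71% (MWCNT 100), 3.83% (TiO2-NB 10) and 5.84% (TiO2-NB 100), and among the 16 members 0, 1, 1 and 1.

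**Figure D2:**
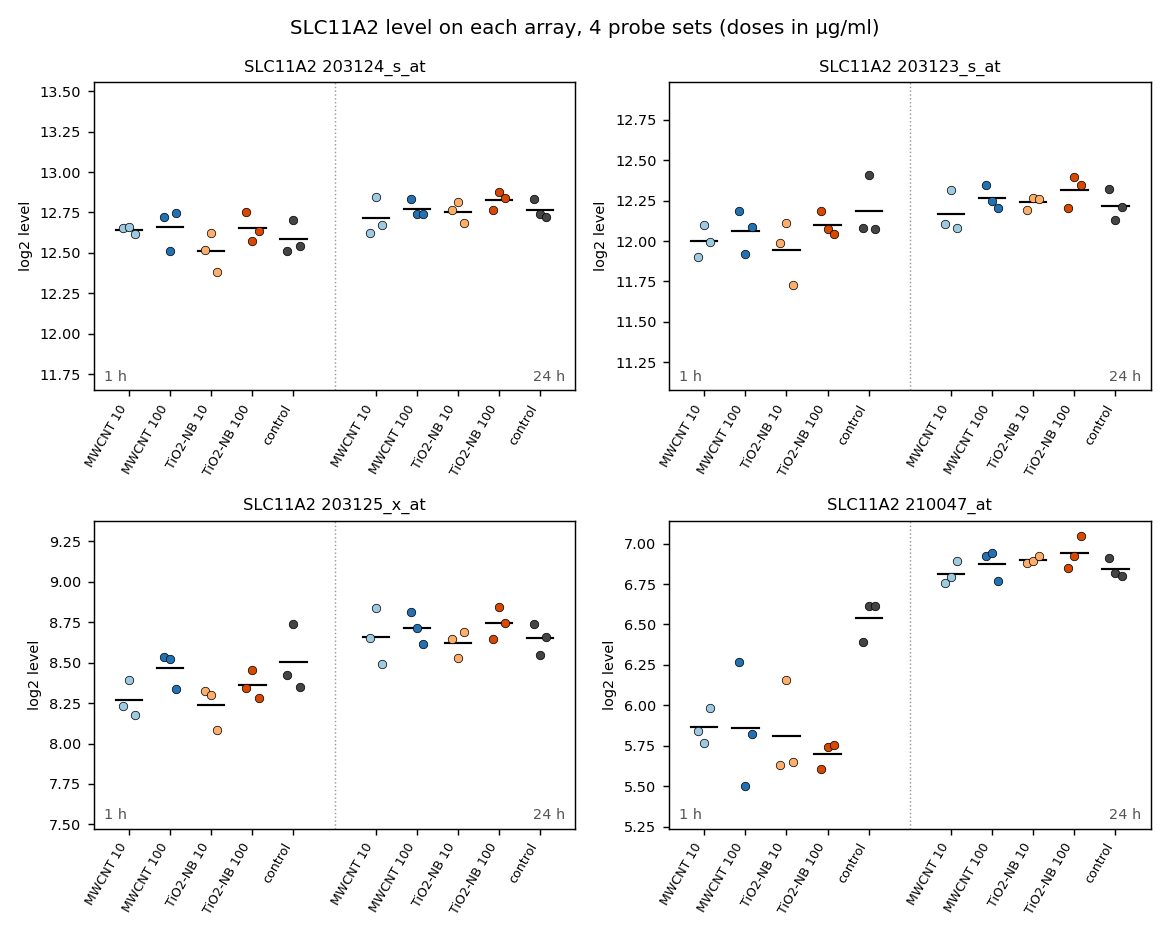
Log2 level (vertical axis, the same span in all panels) of the 4 SLC11A2 probe sets on each of 30 arrays, by exposure in µg/ml (horizontal axis) at 1 h and 24 h. Points are arrays and bars are means of 3: on 210047_at all 12 exposed arrays at 1 h read 5.50 to 6.27, below the controls at 6.39 to 6.61, while the other 3 probe sets overlap with control at 1 h except 203125_x_at with TiO2-NB 10.

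No difference of dose or particle was called on 210047_at at 1 h. The difference was -0.0025 (95% interval -0.28 to 0.27) for MWCNT at 100 against 10 µg/ml and -0.11 (-0.38 to 0.16) for TiO2-NB at 100 against 10 µg/ml. It was 0.053 (-0.22 to 0.33) for MWCNT against TiO2-NB at 10 µg/ml and 0.16 (-0.11 to 0.43) at 100 µg/ml. The intervals leave room for differences of up to 0.43 (log2). The 18S probe set stood higher than control in the same 4 exposures, by 1.17, 1.51, 0.84 and 0.80, and a link to the fall was not tested. The 18S level and exposure went together at 1 h, so a fit that holds both cannot separate them. With that level as a covariate the differences from control were -0.69, -0.70, -0.74 and -0.85 (SE 0.19 with MWCNT 100). Adjusted p in limma was 0.0243, 0.0655, 0.00444 and 0.00115, so the MWCNT 100 call was lost. It was also lost (adjusted p 0.128), as was TiO2-NB 10 (0.0626), when only the 2 groups compared were fitted.

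The other 3 SLC11A2 probe sets were not called in any comparison with control. Probe set 203124_s_at read at 1 h 12.66, 12.66 and 12.62 with MWCNT at 10 µg/ml, 12.72, 12.51 and 12.75 with MWCNT at 100 µg/ml, 12.52, 12.63 and 12.38 with TiO2-NB at 10 µg/ml and 12.75, 12.57 and 12.64 with TiO2-NB at 100 µg/ml, against 12.51, 12.71 and 12.54 in controls. Its differences from control at 1 h were 0.059, 0.076, -0.075 and 0.069, with groups overlapping. At 24 h it read 12.62, 12.85 and 12.67 with MWCNT at 10 µg/ml, 12.84, 12.74 and 12.74 with MWCNT at 100 µg/ml, 12.76, 12.82 and 12.68 with TiO2-NB at 10 µg/ml and 12.77, 12.88 and 12.84 with TiO2-NB at 100 µg/ml, against 12.83, 12.74 and 12.72 in controls, again overlapping, with differences of -0.05, 0.01, -0.0079 and 0.065.

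Probe set 203123_s_at read at 1 h 11.90, 12.10 and 11.99 with MWCNT at 10 µg/ml, 12.18, 11.92 and 12.09 with MWCNT at 100 µg/ml, 11.99, 12.11 and 11.73 with TiO2-NB at 10 µg/ml and 12.18, 12.07 and 12.04 with TiO2-NB at 100 µg/ml, against 12.08, 12.41 and 12.08 in controls. All 4 differences were negative, -0.19, -0.12, -0.24 and -0.088, and the groups overlapped although 1 control culture stood well above the rest. After 24 h it read 12.11, 12.31 and 12.08 with MWCNT at 10 µg/ml, 12.35, 12.25 and 12.21 with MWCNT at 100 µg/ml, 12.19, 12.26 and 12.26 with TiO2-NB at 10 µg/ml and 12.20, 12.39 and 12.35 with TiO2-NB at 100 µg/ml, against 12.32, 12.13 and 12.21 in controls. Differences there were -0.052, 0.049, 0.02 and 0.096.

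Probe set 203125_x_at read at 1 h 8.23, 8.39 and 8.18 with MWCNT at 10 µg/ml, 8.53, 8.52 and 8.34 with MWCNT at 100 µg/ml, 8.32, 8.30 and 8.09 with TiO2-NB at 10 µg/ml and 8.34, 8.45 and 8.28 with TiO2-NB at 100 µg/ml, against 8.42, 8.74 and 8.35 in controls. Differences were -0.24, -0.04, -0.27 and -0.15, and all 3 TiO2-NB 10 arrays lay below the controls (limma adjusted p 0.1). The 24 h arrays read 8.65, 8.84 and 8.49 with MWCNT at 10 µg/ml, 8.81, 8.71 and 8.62 with MWCNT at 100 µg/ml, 8.64, 8.53 and 8.69 with TiO2-NB at 10 µg/ml and 8.64, 8.85 and 8.74 with TiO2-NB at 100 µg/ml, against 8.74, 8.55 and 8.66 in controls, with overlap and differences of 0.011, 0.065, -0.029 and 0.095. The difference between 210047_at and the other probe sets was not tested. With TiO2-NB 100 at 1 h the 95% interval on 210047_at was -1.11 to -0.57, and those on 203124_s_at, 203123_s_at and 203125_x_at were -0.079 to 0.22, -0.28 to 0.11 and -0.35 to 0.056. Across the 30 arrays, which share groups and normalisation, the 4 probe sets correlated with each other at 0.64 to 0.86 (Pearson r, a description).

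CYBRD1, the brush border ferric reductase, had group means between 3.96 and 4.52, below the array medians, where values carry much noise. At 24 h its difference from control was 0.33, 0.28, 0.18 and 0.16 (SE 0.13), with all 3 MWCNT 10 arrays at 4.51 to 4.53 above the controls at 3.96 to 4.46. None was called (limma adjusted p 0.691 to 0.9995). At 1 h the differences were 0.14, -0.072, 0.25 and 0.097, the 3 TiO2-NB 10 arrays standing above the controls.

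HEPH, the basolateral oxidase that loads exported iron onto transferrin, was not called in any comparison with control. Probe set 203903_s_at had group means of 12.41 to 12.59 and differences of -0.0024, -0.024, -0.067 and -0.025 at 1 h and -0.048, -0.046, -0.0036 and 0.022 at 24 h. Probe set 203902_at had group means of 5.59 to 5.84 and differences of 0.015, -0.043, -0.11 and -0.059 at 1 h and -0.14, -0.16, 0.008 and -0.13 at 24 h. All arrays lay below the controls on 203903_s_at with TiO2-NB 10 at 1 h and MWCNT 100 at 24 h, and on 203902_at with MWCNT 100 at 24 h (limma adjusted p 0.254, 0.960 and 0.892), while in the other comparisons with control the groups overlapped. The 2 probe sets did not follow each other over the 30 arrays (r = -0.18).

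TF, the plasma iron carrier, had 1 of its 4 probe sets called after 1 h of TiO2-NB 100, a rise on 214064_at, while the other 3 differed from control by -0.32 (203400_s_at), -0.21 (214063_s_at) and -0.22 (220109_at) and were not called (limma adjusted p 0.313, 0.48 and 0.0706). Probe set 214064_at read at 1 h 5.89, 5.99 and 6.06 with MWCNT at 10 µg/ml, 5.83, 5.88 and 5.86 with MWCNT at 100 µg/ml, 5.94, 5.86 and 6.06 with TiO2-NB at 10 µg/ml and 5.99, 6.04 and 5.96 with TiO2-NB at 100 µg/ml, against 5.81, 5.86 and 5.77 in controls. The rise with TiO2-NB 100 was 0.18 ± 0.057 (log2, SE; limma adjusted p 0.0427), with all 3 arrays above the controls. Arrays with MWCNT 10 and TiO2-NB 10 also lay above the controls, with differences of 0.17 and 0.15 that were not called. The TiO2-NB 100 call did not hold when any single array of either group was left out: adjusted p was then 0.0524 to 0.158 (control replicate 1, 0.0825; replicate 2, 0.0524; replicate 3, 0.158; TiO2-NB 100 replicate 1, 0.0895; replicate 2, 0.157; replicate 3, 0.0587). It was also lost with the replicate number as a block (adjusted p 0.0531). At 24 h the probe set read 5.92, 6.08 and 5.94 with MWCNT at 10 µg/ml, 6.08, 6.02 and 5.95 with MWCNT at 100 µg/ml, 6.02, 6.02 and 6.15 with TiO2-NB at 10 µg/ml and 6.00, 6.08 and 5.94 with TiO2-NB at 100 µg/ml, against 6.13, 6.03 and 6.05 in controls, with overlap and no call.

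The remaining TF probe sets were not called. Probe set 203400_s_at read at 1 h 8.37, 7.81 and 7.78 with MWCNT at 10 µg/ml, 7.73, 7.28 and 7.70 with MWCNT at 100 µg/ml, 7.63, 7.46 and 7.95 with TiO2-NB at 10 µg/ml and 7.26, 7.59 and 7.93 with TiO2-NB at 100 µg/ml, against 7.74, 7.98 and 8.02 in controls, with the MWCNT 100 arrays below the controls (difference -0.35, adjusted p 0.263 in limma). After 24 h it read 8.17, 7.88 and 7.89 with MWCNT at 10 µg/ml, 8.42, 7.92 and 8.29 with MWCNT at 100 µg/ml, 7.77, 8.02 and 7.64 with TiO2-NB at 10 µg/ml and 7.83, 7.88 and 7.78 with TiO2-NB at 100 µg/ml, against 7.77, 7.67 and 8.10 in controls, and MWCNT 100 then stood at 0.36 from control, not called. Probe set 214063_s_at followed it over the 30 arrays (r = 0.95).

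Probe set 214063_s_at itself read at 1 h 7.93, 7.54 and 7.49 with MWCNT at 10 µg/ml, 7.49, 6.96 and 7.33 with MWCNT at 100 µg/ml, 7.31, 7.24 and 7.58 with TiO2-NB at 10 µg/ml and 7.04, 7.32 and 7.56 with TiO2-NB at 100 µg/ml, against 7.42, 7.42 and 7.72 in controls. The 24 h arrays read 7.73, 7.48 and 7.53 with MWCNT at 10 µg/ml, 7.98, 7.40 and 7.88 with MWCNT at 100 µg/ml, 7.31, 7.61 and 7.27 with TiO2-NB at 10 µg/ml and 7.53, 7.53 and 7.30 with TiO2-NB at 100 µg/ml, against 7.50, 7.40 and 7.57 in controls. Groups overlapped in all 8 comparisons with control. Differences ran from -0.26 to 0.27.

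Probe set 220109_at lay near the floor of the array. It read at 1 h 2.39, 2.50 and 2.54 with MWCNT at 10 µg/ml, 2.26, 2.34 and 2.44 with MWCNT at 100 µg/ml, 2.43, 2.43 and 2.44 with TiO2-NB at 10 µg/ml and 2.45, 2.22 and 2.31 with TiO2-NB at 100 µg/ml, against 2.53, 2.36 and 2.74 in controls. At 24 h it read 2.42, 2.54 and 2.53 with MWCNT at 10 µg/ml, 2.42, 2.44 and 2.41 with MWCNT at 100 µg/ml, 2.48, 2.51 and 2.36 with TiO2-NB at 10 µg/ml and 2.42, 2.28 and 2.31 with TiO2-NB at 100 µg/ml, against 2.43, 2.53 and 2.55 in controls. Differences from control were all negative, from -0.22 to -0.0088, and none was called, though all 3 TiO2-NB 100 arrays lay below the controls at 24 h. With TiO2-NB 100 at 1 h its fall was called in 2 of 6 fits that leave out 1 array, without TiO2-NB 100 replicate 1 and without control replicate 2, by 0.31 in the second of these (limma adjusted p 0.00896). Correlations of 214064_at and 220109_at with the other TF probe sets lay between -0.12 and 0.20.

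TFRC, the receptor that imports transferrin-bound iron, stood higher than control at 1 h on probe set 208691_at in 3 of 4 exposures without being called. Group means were 13.19 ± 0.044, 13.21 ± 0.047, 13.09 ± 0.034 and 13.20 ± 0.041 with MWCNT 10, MWCNT 100, TiO2-NB 10 and TiO2-NB 100, against 13.09 ± 0.033 in control (SD, n = 3 each). All arrays of MWCNT 10, MWCNT 100 and TiO2-NB 100 lay above the controls. The differences were 0.1, 0.12, 0.0051 and 0.11, at limma adjusted p of 0.138, 0.0613, 0.965 and 0.093. Of 9 alternative fits, 1, 5 and 2 called the rise with MWCNT 10, MWCNT 100 and TiO2-NB 100. The second probe set, 207332_s_at, differed by -0.026, 0.068, -0.029 and 0.047 and overlapped with control throughout. At 24 h the 8 differences of both probe sets ran from -0.027 to 0.070, and both were above all controls with TiO2-NB 100 alone, again not called.

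FTL, the ferritin light chain, had the smallest span of group means among the 16 probe sets. Its 2 probe sets had group means of 13.82 to 13.88 (212788_x_at) and 13.59 to 13.64 (213187_x_at), so that the 10 groups spanned 0.058 and 0.052 (log2). The 16 differences from control lay between -0.018 and 0.038, and their 95% intervals reached no farther than -0.075 and 0.10. The highest value on any array was 14.40, so FTL was read near the top of the scale, where array values can be compressed. ACO1, the cytosolic aconitase that becomes an iron regulatory protein when it loses its iron-sulfur cluster, differed from control by -0.024, -0.051, -0.073 and -0.065 at 1 h and 0.034, 0.0088, 0.054 and 0.06 at 24 h, none called. Its 24 h arrays with MWCNT 10, TiO2-NB 10 and TiO2-NB 100 lay above the controls. FTL arrays lay below the controls on 212788_x_at with MWCNT 100 at 1 h, and above them at 24 h on both probe sets with MWCNT 100, on 213187_x_at with MWCNT 10 and on 212788_x_at with TiO2-NB 10.

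**Figure D3:**
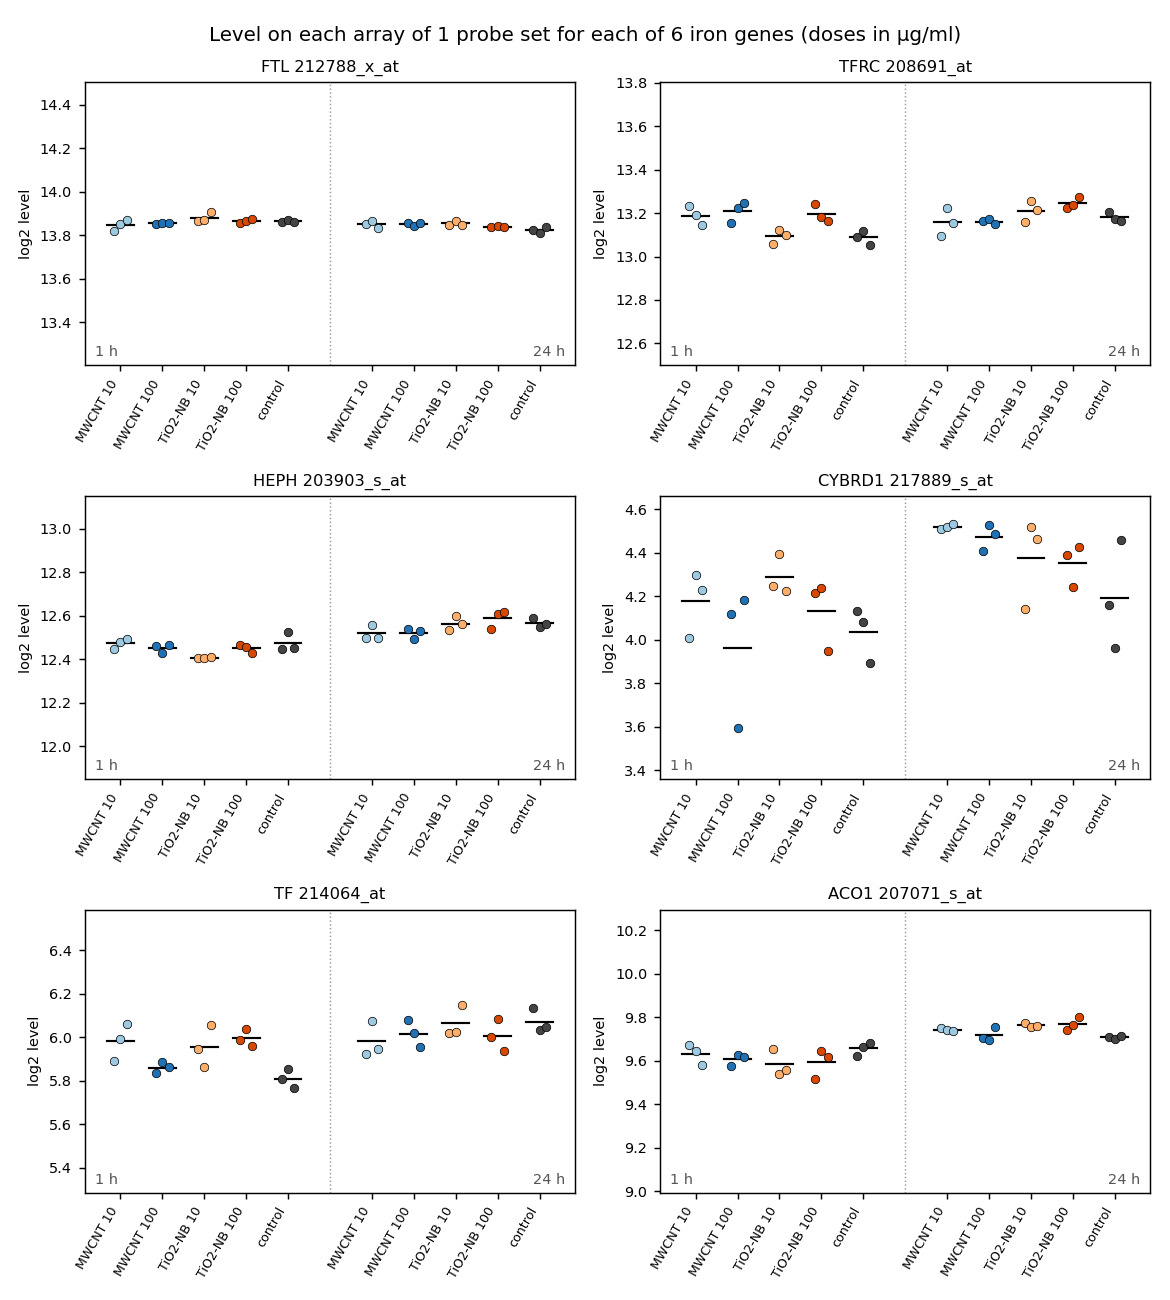
Log2 level (vertical axis, the same span in all panels) of 1 probe set of FTL, TFRC, HEPH, CYBRD1, TF and ACO1 on each of 30 arrays, by exposure in µg/ml (horizontal axis) at 1 h and 24 h. Points are arrays and bars are means of 3: FTL group means span 0.058, ACO1 and HEPH stand higher at 24 h, and the 1 h controls of TF 214064_at, at 5.77 to 5.86, lie at the low end.

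At 24 h none of the 16 probe sets was called with any exposure, while limma called 0.0045%, 0.009%, 0.0585% and 3.53% of all probe sets with MWCNT 10, MWCNT 100, TiO2-NB 10 and TiO2-NB 100. At an unadjusted p under 0.05 the members numbered 1, 1, 0 and 1, against 952, 1236, 1686 and 2887 of all 22215. The members were CYBRD1 with both MWCNT doses and TF 220109_at with TiO2-NB 100.

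Dose and particle comparisons called no iron probe set. At 1 h limma called 0% of all probe sets for either dose step and for MWCNT 100 against TiO2-NB 100, and 0.0675% for MWCNT 10 against TiO2-NB 10. At 24 h it called 0% for the MWCNT dose step, 1.83% for the TiO2-NB dose step, 0.0315% for MWCNT 10 against TiO2-NB 10 and 2.88% for MWCNT 100 against TiO2-NB 100. Members with an unadjusted p under 0.05 numbered 3 (MWCNT dose), 1 (TiO2-NB dose), 1 (particles at 10 µg/ml) and 1 (particles at 100 µg/ml) at 1 h, and 0, 0, 0 and 2 at 24 h. Of all 22215 probe sets, 1518, 1427, 3041 and 2055 did so at 1 h, and 1478, 1860, 1083 and 2803 at 24 h. The 3 members of the MWCNT dose step at 1 h were TF probe sets. They were lower with MWCNT 100 than with MWCNT 10 by 0.42, 0.39 and 0.12 (203400_s_at, 214063_s_at and 214064_at). The first 2 of these ran together over the 30 arrays (r = 0.95). TFRC 208691_at was higher with TiO2-NB 100 than with TiO2-NB 10 at 1 h by 0.10 (limma adjusted p 0.720).

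Time was compared in the controls, as 24 h against 1 h in fresh medium. Time since the medium change and time in culture cannot be told apart there. In controls at 24 h against 1 h, 1 of 16 probe sets was called, against 18.1% of all probe sets. It was TF 214064_at, with 6.13, 6.03 and 6.05 at 24 h and 5.81, 5.86 and 5.77 at 1 h, a rise of 0.26 ± 0.057 (log2, SE; limma adjusted p 0.00174). HEPH 203903_s_at differed by 0.092 (adjusted p 0.0576 in limma), SLC11A2 203124_s_at by 0.18 (0.092) and SLC11A2 210047_at by 0.30 (0.123). In each of these 3 the 24 h control arrays lay above the 1 h ones without being called. The same held for TFRC 208691_at (13.16 to 13.21 against 13.05 to 13.12) and ACO1 (9.70 to 9.72 against 9.62 to 9.68). FTL 212788_x_at went the other way (13.81 to 13.84 against 13.86 to 13.87) and was not called either. How many of all probe sets separate the controls in this way was not counted, so nothing is read from these separations. In an F-test over all 10 groups, 9 of 16 probe sets of 6 genes were called, against 38.5% of all probe sets. They were all 4 of SLC11A2 (limma adjusted p 9.62e-10 for 210047_at, 3.09e-04 for 203125_x_at, 0.0182 for 203124_s_at and 0.0309 for 203123_s_at), ACO1 (3.19e-04), HEPH 203903_s_at (6.70e-04), TF 214064_at (0.00785), CYBRD1 (0.0129) and TFRC 208691_at (0.0291). FTL was not among them (0.805 and 0.763).

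The order of the group means of ACO1 followed time: its 5 groups at 24 h, at 9.71 to 9.77, stood above the 5 at 1 h, at 9.58 to 9.66. Within each time, neighbouring groups differed by less than the spread of their arrays, whose pooled SD was 0.038. Likewise 210047_at ordered as the 4 exposures at 1 h (5.70 to 5.86), the 1 h control (6.54) and the 5 groups at 24 h (6.81 to 6.94), with neighbours inside each block closer than the pooled SD of 0.17.

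The genes whose levels ran most like those of SLC11A2 and ACO1 were found by Pearson r over the 30 arrays, which share groups, and are given as a description. SLC11A2 was picked for the F-test of 210047_at, but its brightest probe set, 203124_s_at, was used here. That probe set was not called against control and correlated with 210047_at at 0.64, so its likenesses do not describe the change on 210047_at. For SLC11A2 203124_s_at they were GABRA2 (0.920), PAM (0.913), SORL1 (0.911), PDE10A (0.899) and PLOD2 (0.869). For ACO1 they were TUBGCP4 (0.919), ZNF451 (0.918), POLG2 (0.912), RABGAP1 (0.911) and FCHSD2 (0.903).

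The wider set of iron and heme genes held 62 symbols, of which 50 were measured under a single symbol, each through its brightest probe set. At 1 h, 1, 1, 2 and 1 of the 50 rose and 4, 6, 4 and 7 fell with MWCNT 10, MWCNT 100, TiO2-NB 10 and TiO2-NB 100, against 7.86%, 9.44%, 9.52% and 10.5% of all 11963 genes called in either direction. At 24 h none was called, against 0%, 0.00836%, 0.0502% and 3.15% of genes. The median change over the 50 was -0.058, -0.061, -0.017 and -0.040 at 1 h, and over all probe sets -0.012, -0.0081, 0.0051 and 0.0015. The 50 are the brightest probe sets of their genes, while the medians beside them take in every probe set. These medians are thus not over like sets, and their difference was not tested.

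Of the 8 enzymes of heme synthesis on that list, a group set apart after the values were seen and given with no test, 7 were measured. At 1 h, 2, 3, 1 and 3 of the 7 fell and 1, 1, 0 and 0 rose with MWCNT 10, MWCNT 100, TiO2-NB 10 and TiO2-NB 100. Of all 11963 genes, 7.86%, 9.44%, 9.52% and 10.5% were called in either direction. Because the group was chosen after its values were seen, its counts cannot be weighed against these shares. CPOX, coproporphyrinogen oxidase, had means of 8.03, 7.99, 7.88 and 7.92 in the 4 exposures, against 8.29 in control, and fell by 0.27, 0.30, 0.41 and 0.37 (log2, SE 0.063; limma adjusted p 0.0110 to 1.48e-04). PPOX, the next enzyme of the path, fell by 0.23, 0.22 and 0.23 with MWCNT 10, MWCNT 100 and TiO2-NB 100, and ALAD, which joins aminolevulinic acid into porphobilinogen, by 0.18 with MWCNT 100 and 0.18 with TiO2-NB 100. ALAS1, the first and rate-limiting enzyme outside red cells, rose by 0.14 with MWCNT 10 and 0.14 with MWCNT 100. FECH, which inserts the iron, differed by 0.079, 0.047, 0.063 and 0.084 and was not called. UROS, which closes the porphyrin ring, differed by -0.031, -0.078, 0.046 and -0.060, and UROD, which acts after it, by -0.075, -0.052, 0.011 and -0.16, none called. ABCB6, a porphyrin transporter, fell by 0.18, 0.20 and 0.25 with MWCNT 100, TiO2-NB 10 and TiO2-NB 100. PPOX, ALAD, ALAS1, UROS, UROD and ABCB6, and likewise STEAP1, CISD1, MELTF and STEAP3, were chosen for naming after their values were seen: UROS and UROD complete the enzymes, and the others were called.

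EGLN1, the oxygen- and iron-dependent prolyl hydroxylase that marks hypoxia-inducible factors for decay, had means of 8.07, 8.09, 7.90 and 7.96 in the 1 h exposures, against 8.44 in control. It fell by 0.37, 0.35, 0.54 and 0.48 (log2, SE 0.075; limma adjusted p 0.00502 to 4.69e-05). At 24 h it differed by 0.0097, 0.014, 0.080 and 0.10, none called. STEAP1, of the metalloreductase family, fell at 1 h by 0.24, 0.23, 0.23 and 0.31. CISD1, an iron-sulfur protein of the outer mitochondrial membrane, fell by 0.12 with TiO2-NB 100. MELTF, melanotransferrin, rose by 0.28 and STEAP3, the ferrireductase of the transferrin cycle, by 0.27 with TiO2-NB 10. HMOX2, the constitutive heme oxygenase, rose by 0.20 with TiO2-NB 100 (limma adjusted p 0.0188).

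HMOX1, the inducible heme oxygenase that frees iron from heme, differed at 1 h by 0.12, 0.18, 0.18 and 0.24 and was not called (limma adjusted p 0.0979 to 0.5003). SLC40A1, which encodes ferroportin, had no probe set under its symbol alone and was not analysed here. NCOA4, the receptor that delivers ferritin to lysosomes, differed by -0.056, -0.091, -0.079 and -0.075, and FBXL5, which targets the iron regulatory proteins for decay when iron is ample, by -0.019, -0.030, -0.11 and -0.082, none called. FLVCR2, FDX1, SMAD4, ID1 and FECH, also chosen by their F-test, were not called against control at either time. All 5 were called in controls at 24 h against 1 h, a difference that the F-test that chose them includes. These calls are therefore not a separate result. ID1, a target of bone morphogenetic protein signalling, fell by 1.37 (log2, SE 0.089; limma adjusted p 7.37e-11), FLVCR2 by 0.36, FECH by 0.36, HMOX2 by 0.22 and FDX1 by 0.10, while CPOX rose by 0.54 and SMAD4 by 0.51. In all, 2 of the 50 rose and 12 fell in that comparison, against 21.1% of all 11963 genes called.

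**Figure D4:**
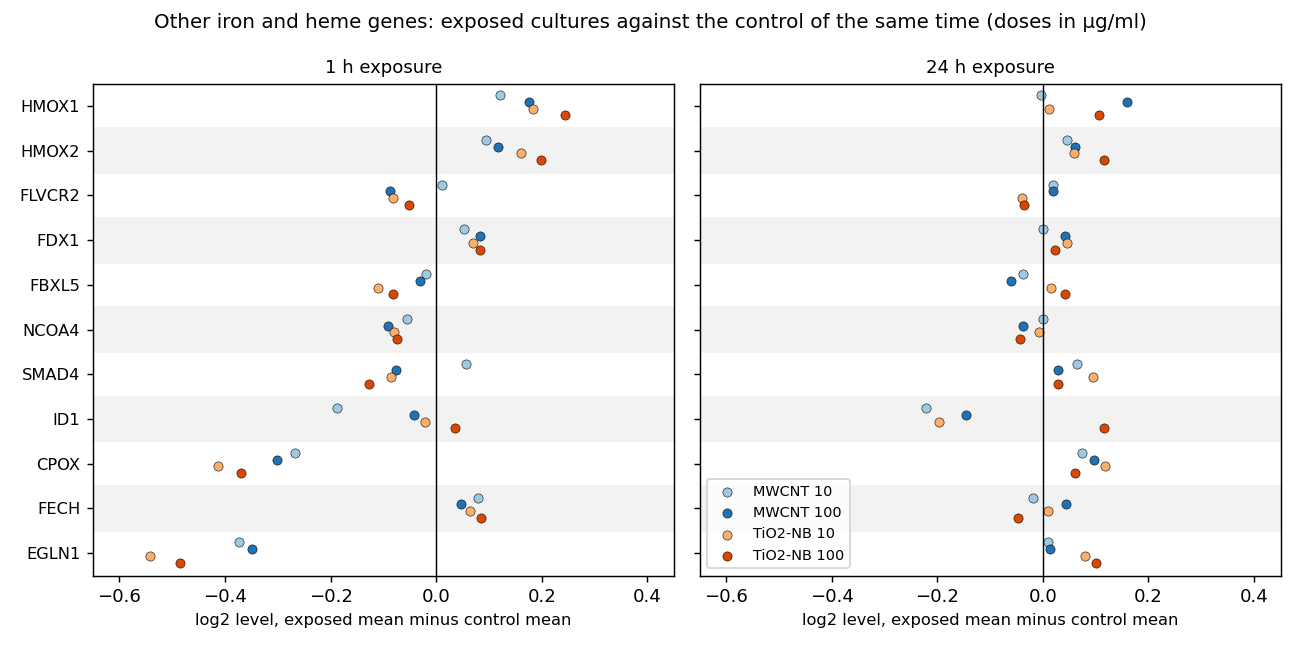
Exposed mean minus control mean (horizontal axis, log2) for 11 iron and heme genes (rows) at 1 h on the left and 24 h on the right, each point 1 exposure (means of 3 arrays, no error drawn). CPOX, at -0.41 to -0.27, and EGLN1, at -0.54 to -0.35, lie left of 0 at 1 h in all 4 exposures and between 0.0097 and 0.12 at 24 h.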

How the data were processed

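RNA of 30 Caco-2/HT29-MTX cultures was read on 1-colour Affymetrix arrays, 1 array a culture. The values were deposited by the authors as log2 levels per probe set, made with RMA (background correction, quantile normalization and summary of probes) per the submitters' processing notes; for its version and probe definition the sources used here state nothing. Quantile normalization makes every change relative to the other probe sets, and the precision is limited by 3 arrays a group.

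Affymetrix control probe sets were left out, which leaves 22215. The platform annotation gave 19064 of these a single symbol, 1043 several and 2108 none, and only single symbols were used. limma 3.58.1 in R 4.3.3 fitted 1 mean a group over all 30 arrays, and the Benjamini-Hochberg adjustment ran over every probe set of a comparison. Tests are two-sided. Tested on simulated data, the fit was checked before use. All 16 member probe sets passed into the fit, since no filter on low values was applied. Members with a called change against control are given array by array, and others by group. Of the other iron and heme genes, the 8 with the smallest F-test p and SLC40A1, HMOX1, NCOA4 and FBXL5 are named; genes outside this rule are marked. The members and lists were chosen with earlier results of these data known. Promoters are RefSeq's on GRCh38.p14. Figures were drawn with matplotlib 3.10.9.

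Alternatives were a fit of the compared groups only, a replicate block, leaving out dim probe sets, 2 other scalings, another variance model, array weights, 1 probe set a gene, the 18S level as a covariate and each array left out.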

Additional observations from a re-analysis of the deposited data

Results flagged for a closer look

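The effect of exposure on SLC11A2 probe set 210047_at differed between the times in 3 of 4 exposures, by a test of the 24 h effect minus the 1 h effect in limma. The difference was 0.71 ± 0.19 (log2, SE) with MWCNT 100 (adjusted p 0.0384), 0.78 ± 0.19 with TiO2-NB 10 (adjusted p 0.0181) and 0.94 ± 0.19 with TiO2-NB 100 (adjusted p 0.00287). In all 3 the exposed arrays lay below control at 1 h and overlapped with control at 24 h. The MWCNT 100 value was called in 3 of 12 fits that leave out 1 array, with differences of 0.53 to 0.91. The call was lost without any 1 of control replicates 2 and 3 at 1 h, MWCNT 100 replicates 2 and 3 at 1 h, all 3 controls at 24 h, and MWCNT 100 replicates 1 and 2 at 24 h (adjusted p 0.0552 to 0.0975). The TiO2-NB 10 value lost its call without TiO2-NB 10 replicate 1 or replicate 3 at 1 h (adjusted p 0.0523 and 0.0544), and the TiO2-NB 100 value kept its call in all 12 such fits. With the 18S level as a covariate, the MWCNT 100 difference was 0.73 (adjusted p 0.1596).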

How the results depend on the processing

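Only the 22 member results called in the main fit or in at least 1 alternative were followed, against 348 alternative values. Of these values none changed direction, 292 kept their side of the threshold, 27 lost and 29 gained a call. Changes of direction among results never called were not counted. The count of iron probe sets called at 1 h with MWCNT 10 was 1, and 2 with the dimmest probe sets left out, a second quantile normalization or an intensity trend, and 0 with 1 probe set a gene, since 210047_at is not the brightest SLC11A2 probe set. With MWCNT 100 the count was 1, and 2 with the dimmest probe sets left out, median centring, an intensity trend or array weights, and 0 with 18S as a covariate or with the compared groups only. With 1 probe set a gene the MWCNT 100 count stayed at 1, but 210047_at is not in that fit and the call was TFRC 208691_at. With TiO2-NB 10 it was 1, and 0 with 1 probe set a gene or the compared groups only. With TiO2-NB 100 it was 2, and 3 with the dimmest probe sets left out, where TFRC 208691_at gained a call, and 1 with array weights or the compared groups only, and 0 with 1 probe set a gene. In controls at 24 h against 1 h it was 1, and 2 with the dimmest probe sets left out, a second quantile normalization, median centring, array weights or the compared groups only, and 3 with an intensity trend. For the effect at 24 h minus that at 1 h, the MWCNT 10 count of 0 became 2 with array weights and 1 with the compared groups only, the MWCNT 100 count of 1 became 0 with 1 probe set a gene, 18S as a covariate or the compared groups only, the TiO2-NB 10 count of 1 became 0 with 1 probe set a gene, and the TiO2-NB 100 count of 1 became 2 with the dimmest probe sets left out and 0 with 1 probe set a gene. The F-test count of 9 became 5 with 1 probe set a gene. Leaving out 1 array gave counts of 1 to 2 (MWCNT 10, 1 h), 1 to 2 (MWCNT 100, 1 h), 1 to 1 (TiO2-NB 10, 1 h), 1 to 2 (TiO2-NB 100, 1 h), 1 to 3 (controls over time), 6 to 10 (F-test), 0 to 1 (MWCNT 100 effect over time), 0 to 1 (TiO2-NB 10 effect over time) and 1 to 1 (TiO2-NB 100 effect over time). At 1 h the second call gained was TFRC 208691_at or TF 214064_at with MWCNT 10, and TFRC 208691_at or, without control replicate 2, TF 220109_at with MWCNT 100. With TiO2-NB 100, TF 214064_at lost its call in all 6 fits that left out 1 array, and the count of 2 without control replicate 2 or TiO2-NB 100 replicate 1 came from a fall of TF 220109_at. With an intensity trend the count stayed at 2 with TFRC 208691_at called and TF 214064_at not. The 3 calls in controls over time, without control replicate 2 at 1 h, were TF 214064_at, SLC11A2 203124_s_at and HEPH 203903_s_at. All 4 falls of 210047_at at 1 h stayed called in every fit that left out 1 array, at -0.91 to -0.50. Except where named, the cause of these shifts was not tested.

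With the replicate block, 1 probe set was called with TiO2-NB 100 at 1 h in place of 2, and 0 in place of 1 for the MWCNT 100 effect over time (adjusted p 0.0532 for SLC11A2 210047_at). The block changed no other count of iron probe sets. The numbers are not a pairing by design: over 135 pairs of same-numbered arrays of different groups, the deviations correlated at 0.0026 on average (-0.28 to 0.21), and 12 of 30 arrays correlated best with their own number.

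Over all probe sets at 1 h, fitting only the compared groups called 84, 112, 219 and 269 with MWCNT 10, MWCNT 100, TiO2-NB 10 and TiO2-NB 100, against 1435, 1729, 1742 and 1872 in the fit over all groups. The 18S covariate called 698 with MWCNT 10, 347 with MWCNT 100, 1336 with TiO2-NB 10 and 1464 with TiO2-NB 100. Signals at the low end (CYBRD1, TF 220109_at) and near the top (FTL) limit what could be seen.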
